A study of Bos taurus with 4 samples.

Results

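Enzymes that add or remove acetyl and methyl groups on histones were compared between Holstein (Bos taurus) embryos from cows with high and low blood ketones, on 4 microarrays that each carried both groups. The members were chosen by name: the histone deacetylases outside HDAC1, HDAC2 and HDAC3, the sirtuins, the KAT, HAT1, CREBBP and NCOA acetyltransferases and coactivators, the KDM demethylases, the KMT2, KMT5, SETD, SETDB, SUV39H, EHMT and NSD methyltransferases, DOT1L, the core of Polycomb repressive complex 2 (PRC2) and the protein arginine methyltransferases (PRMT). Probes carried the symbols of 65 such genes out of 15216 named genes on the array, 58 under a matching platform symbol and 7 under an older one (WHSC1L1, MLL5, MYST1, MYST2, JMJD2A, JMJD5 and SUV420H1 for NSD3, KMT2E, KAT8, KAT7, KDM4A, KDM8 and KMT5B). KMT2E was the only KMT2 gene among these 65, and no probe carried the symbol of DOT1L or EP300. Of the 65 genes, 51 had a probe bright enough to be tested, among 7879 tested genes.

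Per the labels, the groups were superovulated cows whose blood beta-hydroxybutyrate (BHB) lay below 0.9 mmol/l (low) or above it (high). BHB is a ketone body that builds up when a cow's energy balance is negative. Both groups were inseminated with sexed semen from a panel of bulls, and their morulas and blastocysts were recovered on day 7, with both stages in a group. Each of the 4 arrays held 1 amplified RNA of the high BHB group and 1 of the low BHB group, with the high group in Cy5 on arrays 1 and 2 and in Cy3 on arrays 3 and 4. Arrays 1 to 4 are labelled as biological replicates, without saying if 1 cow or a pool of cows stands behind each, and ages of the cows are not given in the sources used here, so a p-value here rests on array-to-array spread, which may be technical. In whole embryos, fewer cells of a type and less RNA per cell cannot be told apart.

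Histone acetylation loosens the packing of DNA and is written by acetyltransferases and erased by zinc-dependent deacetylases (HDAC) and by NAD-dependent sirtuins. Methylation acts by position: the H3K4 mark lies at active promoters, H3K9 and H3K27 marks at silent chromatin, and PRC2 writes the H3K27 mark. In early mammalian embryos these marks are rebuilt as the embryo's own genome is switched on and the first lineages separate. Class I deacetylase proteins are a known target of BHB, and transcript ratios do not measure enzyme activity.

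Unless another quantity is named, a value is the log2 ratio of the high to the low BHB group for the brightest tested probe of a gene, and a mean ± SD is over the 4 arrays (n = 4). No member passed an adjusted p of 0.05 in limma: the smallest was 0.224, for SETD1A. Over all 16575 tested probes 2 passed (0.0121%), 0 of them with a gene symbol, and among the 7879 genes, each by its brightest probe, 0 did (0%), with 1367 at an unadjusted p under 0.05. Words such as higher and lower therefore describe the measured ratios on these arrays.

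Signals over the whole array set how finely a ratio could be read. Per array, the median raw spot in Cy5 read 213 to 421 units, and that in Cy3 289 to 611. In the high BHB channel 33.4%, 40.5%, 34.9% and 39.7% of probes were above the negative control spots on arrays 1 to 4. In the low BHB channel 48.6%, 43.6%, 33.6% and 41.1% were above those spots, so the groups differed most on array 1. After background correction, which includes an added offset of 50, those control spots read 115 to 248 units. Such a level in both channels can pull the ratios of dim probes towards 0, and its extent was not tested. Array 1 had the widest spread of ratios, with an SD of 0.83 over tested probes against 0.44 to 0.61 on the other arrays. As a description across probes, which are not independent, Pearson's r between arrays over tested probes was 0.38 for arrays 1 and 4 and 0.10 to 0.25 for the other pairs, and over the 51 members 0.34 and 0.01 to 0.24. These points share the probe set and its dye biases.

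Between members, ratios below 0 outnumbered those above, 33 to 18, with a median of -0.12 and a range from -0.72 for KDM3A to 0.84 for SETD1A. Over all tested genes 54.4% had a mean below 0 and 45.6% above, and the median was -0.04. The filter took in 11 members through the low BHB channel alone, 9 of them with a mean below 0, and 0 through the high BHB channel alone. Of all tested genes 13.9% passed through the low channel alone and 5.03% through the high one. The 11 members were SETD6, SUV39H1, SUV39H2, SETDB2, HDAC5, NCOA3, KDM6A, KDM8, EZH1, PRMT1 and SIRT4. Such a gene entered through the group where it was the more often above background, so its ratio supports no direction. With the filter removed, 39 of 65 members (60%) were below 0, against 50.1% of genes. On arrays 1 to 4, 36, 26, 23 and 31 of the 51 members were below 0, which is 70.6%, 51.0%, 45.1% and 60.8%, beside 57.3%, 49.4%, 51.5% and 53.8% of all genes. Without array 1 the members' median was -0.01 and 28 of 51 were below 0, against 51.1% of genes.

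**Figure D1:**
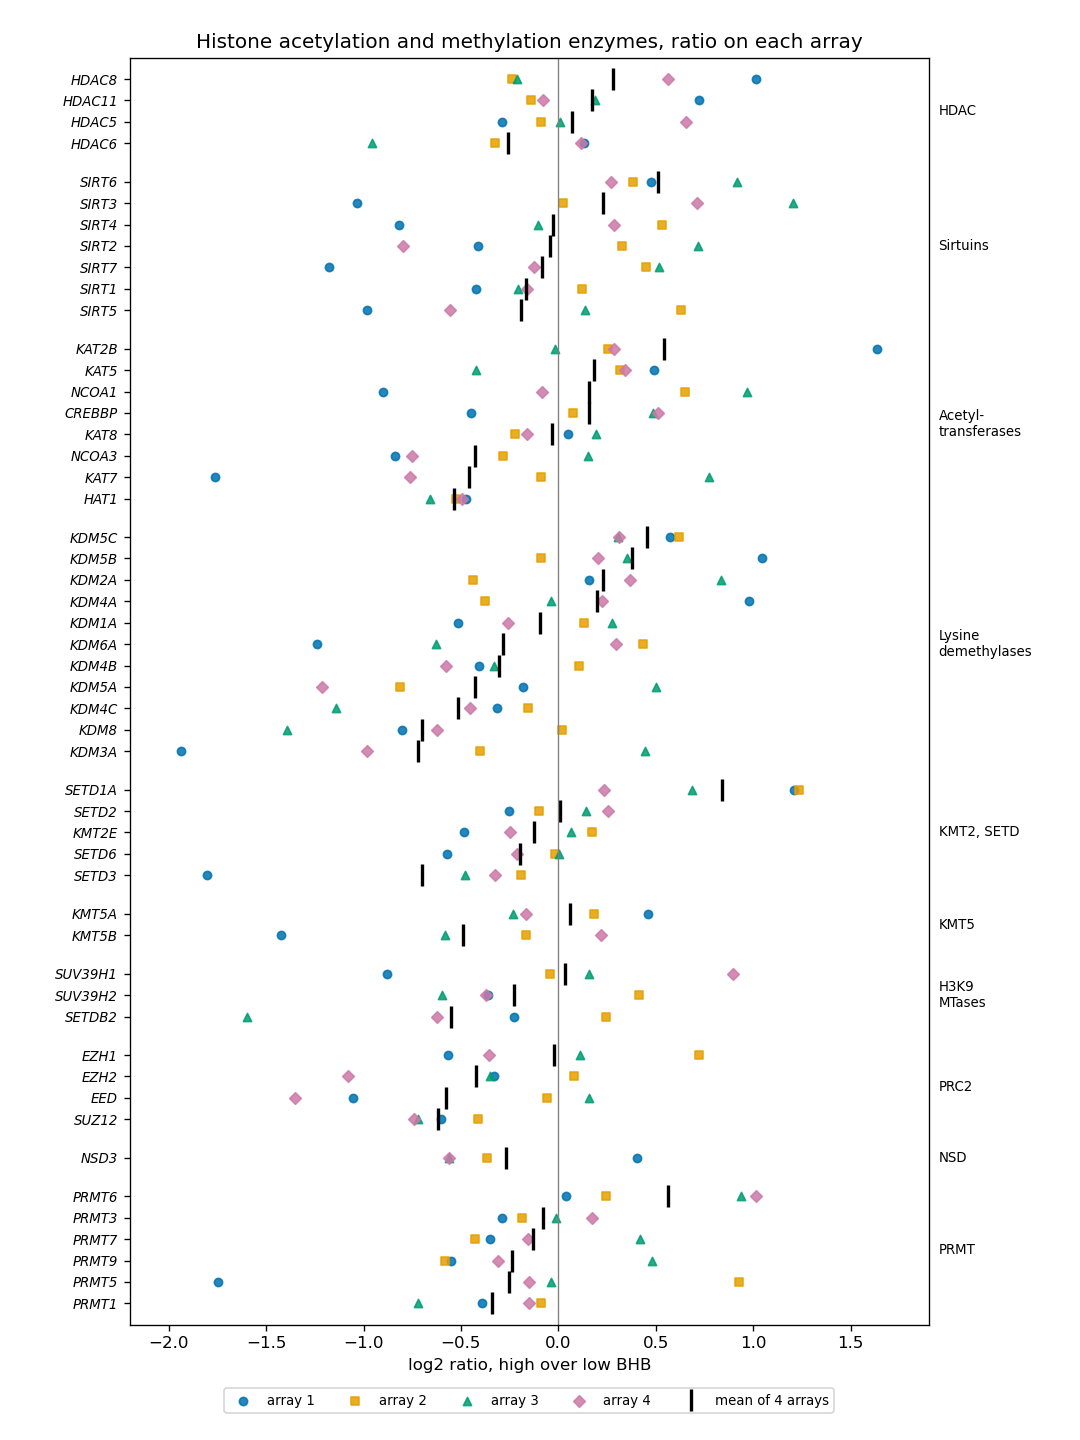
Log2 ratio of high over low BHB (x axis) for the 51 tested histone enzymes (rows, grouped by class), with 1 symbol per array and a black bar at the mean of the 4 arrays. For most members the 4 arrays fall on both sides of 0, and HAT1, SUZ12, KDM5C and SETD1A are among the 9 whose arrays all lie on 1 side.

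An unadjusted p under 0.05 in limma was reached by 9 members (17.6%), 4 with higher and 5 with lower ratios. The same held for 17.3% of all tested genes, 5.72% higher and 11.6% lower, so the members' share was near that of the array as a whole. All 4 arrays lay on 1 side of 0 for 9 members (17.6%), 4 above and 5 below, and for 25.9% of genes, 10.3% above and 15.6% below. The 9 members at an unadjusted p under 0.05 were SETD1A, PRMT6, SIRT6 and KDM5C with higher ratios and SUZ12, HAT1, KDM8, SETD3 and KDM4C with lower ones, or 4 lower without KDM8, which was tested through the low BHB channel alone. Among the 9 with 1 direction, PRMT1 stood in place of KDM8. After median centring of each array in place of loess, 0 members were higher and 10 lower (19.6%) at an unadjusted p under 0.05, beside 0.482% and 22.7% of genes. That scaling moved the median of all genes from -0.04 to -0.23, and that of the members from -0.12 to -0.33.

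Acetyltransferases and the coactivators that carry them were measured for 8 of 9 genes, 4 above and 4 below 0, with a class median of 0.06 that turned to -0.37 after median centring, and also below 0 without the filter, without array 3 and with a mean over a gene's probes. HAT1 acetylates newly made histone H4 in the cytoplasm before it is built into chromatin. Its log2 ratio was -0.48, -0.52, -0.66 and -0.50 on arrays 1 to 4. The 4 arrays lay close together and all below 0, with a mean of -0.54 ± 0.08 (0.689-fold, adjusted p = 0.286), the smallest SD of any member. At the raw level HAT1 read 1660, 1067, 1646 and 1775 units in the high BHB channel and 5374, 2259, 1648 and 2022 in the low BHB channel. The raw channels of array 3 were thus level, and those of array 1 differed most. Median centring, which takes 1 shift from each array, gave -1.70, -0.65, -0.86 and -0.76, with an SD of 0.48 in place of 0.08. That scaling put the median of all tested genes at -0.61, -0.12, -0.11 and -0.21 on arrays 1 to 4. A value below 0 after it is therefore no check of direction.

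KAT2B, also known as PCAF, acetylates histone H3 and many other proteins as part of large coactivator complexes. It read 1.63, 0.25, -0.02 and 0.29 on arrays 1 to 4, a mean of 0.54 ± 0.74 (adjusted p = 0.375) that array 1 carried: without that array it was 0.17. KAT7, the acetyltransferase that prepares replication origins, showed the opposite on the same array, with -1.76, -0.09, 0.77 and -0.76 and a mean of -0.46 ± 1.07, or -0.02 without array 1. KAT5 (TIP60), which works in DNA repair and transcription, had 0.18 ± 0.41, and KAT8, which acetylates histone H4, -0.04 ± 0.19. The general coactivator CREBBP, which acetylates H3 at enhancers, had 0.16 ± 0.45.

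The nuclear receptor coactivators NCOA1 and NCOA3, which bring CREBBP and its relatives to target genes, had 0.16 ± 0.83 and -0.43 ± 0.46. NCOA1 was measured by 3 probes, with means of 0.16, -0.08 and -0.37 in order of falling brightness, so its sign depended on the probe. The NCOA3 spot exceeded background on 2 arrays for the high group and 3 for the low group. NCOA2 was too dim to be tested.

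Zinc-dependent deacetylases outside HDAC1 to HDAC3 were measured for 4 of 5 genes, 3 above and 1 below 0, with a median of 0.12 that was -0.05 after median centring. HDAC8, a class I enzyme that also deacetylates cohesin, read 1.01, -0.24, -0.21 and 0.56 on arrays 1 to 4. Its arrays lay on both sides of 0, with a mean of 0.28 ± 0.61 (adjusted p = 0.621) that was 0.04 without array 1 and -0.17 after median centring. HDAC6, a cytoplasmic deacetylase of tubulin, read 0.13, -0.33, -0.96 and 0.12, and its mean of -0.26 ± 0.51 (adjusted p = 0.623) was -0.03 without array 3. On array 3 HDAC6 was above background in neither channel, so that ratio is poorly measured. HDAC11 had 0.17 ± 0.39 and the class IIa enzyme HDAC5 0.07 ± 0.41, and HDAC10 did not pass the filter. Of the class I core, HDAC1 had -0.40 ± 1.20, with -2.11 on array 1, and HDAC2 0.0014 ± 0.41, while HDAC3 did not pass the filter.

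All 7 sirtuins were measured, 2 above and 5 below 0. Their class median differed widely between arrays, at -0.82, 0.38, 0.52 and -0.12 on arrays 1 to 4, against -0.14, 0.0057, -0.02 and -0.06 for all genes. The median of the 7 means was -0.04, and 0.24 without array 1, with -0.38 after median centring.

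SIRT6, a nuclear deacetylase of histone H3 that guards telomeres, read 0.48, 0.38, 0.91 and 0.27. All 4 arrays were above 0, with a mean of 0.51 ± 0.28 (1.42-fold, adjusted p = 0.314). The other tested probe of SIRT6 was dimmer and had 0.15 ± 0.24. After median centring the mean was 0.14 and array 1 was at -0.51, so the direction on that array depended on the scaling.

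SIRT5, a mitochondrial enzyme that removes succinyl and malonyl groups, had the lowest sirtuin mean, with -0.98, 0.63, 0.13 and -0.56 on arrays 1 to 4 and -0.19 ± 0.72 (adjusted p = 0.765). SIRT3, the main mitochondrial deacetylase, had 0.23 ± 0.97 and spanned -1.03 on array 1 to 1.20 on array 3. Both ends are poorly measured: the high group on array 1 and the low group on array 3 did not exceed background. SIRT1, the nuclear deacetylase of p53 and other factors, had -0.17 ± 0.23, and its other tested probe -0.19 ± 0.87. SIRT7 of the nucleolus had -0.08 ± 0.78, the tubulin deacetylase SIRT2 -0.04 ± 0.69 and mitochondrial SIRT4 -0.03 ± 0.59. Of these, SIRT2, SIRT3, SIRT4, SIRT5 and SIRT7 had a mean of the other sign when 1 array was left out.

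**Figure D2:**
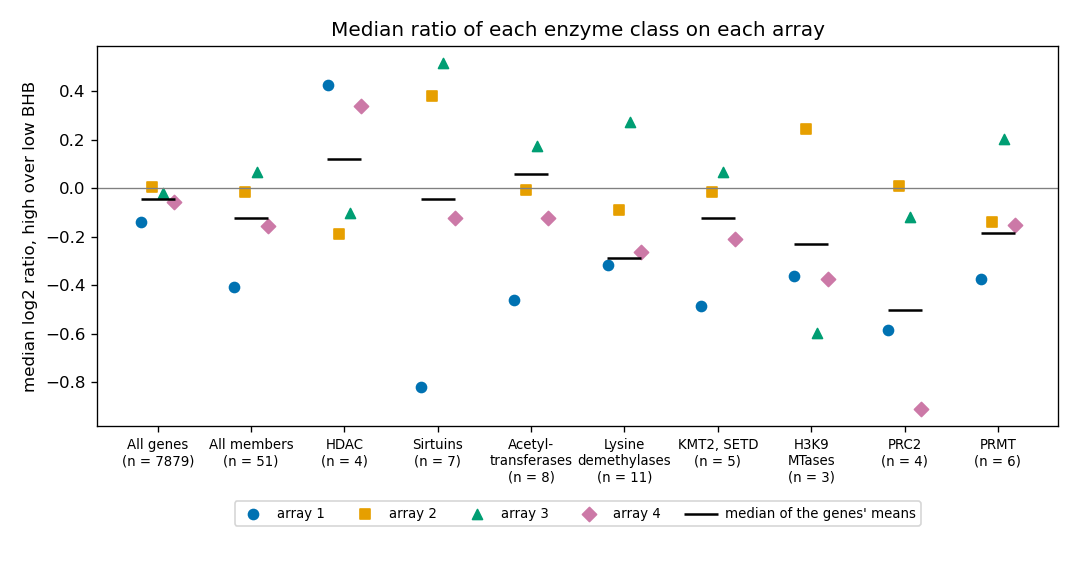
Median log2 ratio of high over low BHB (y axis) on each array for all tested genes, all 51 members and the enzyme classes with at least 3 tested members, with 1 symbol per array and a black bar at the median of the genes' 4-array means. The sirtuin median ranged from -0.82 on array 1 to 0.52 on array 3, and PRC2 was lowest on arrays 1 and 4; after median centring the deacetylase and acetyltransferase medians turned to below 0.

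Of the SETD and KMT2 genes, 5 of 9 were measured, with a median of -0.12. The stricter filter left 2 of them, SETD1A and SETD2, and their median was 0.43. SETD1A, the catalytic subunit of a COMPASS complex that writes the H3K4 mark at promoters, had the highest ratio of any member. It read 1.21, 1.23, 0.69 and 0.23 on arrays 1 to 4. Every array lay above 0, arrays 1 and 2 furthest, and the mean was 0.84 ± 0.48 (1.79-fold, 95% interval of the log2 ratio 0.32 to 1.37, adjusted p = 0.224). Its raw intensity was 1149, 1005, 1757 and 1223 units in the high BHB channel and 1234, 785, 791 and 872 in the low one, so the channels were nearly level on array 1. Median centring gave -0.02, 1.08, 0.54 and -0.01, a mean of 0.40, and arrays 1 and 4 were then close to 0. If arrays whose titles repeat a number are averaged as 1 replicate, its limma adjusted p was 0.0104, and over all alternatives it lay between that and 0.781. SETD1B, its paralog, did not pass the filter.

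SETD3, which methylates a histidine of actin, read -1.80, -0.19, -0.48 and -0.32. Its arrays were all below 0, with a mean of -0.70 ± 0.74 (0.616-fold, adjusted p = 0.314) that was -0.33 without array 1. On array 1 the high group did not exceed background, so that ratio and the fold are poorly measured. SETD2, which writes the H3K36 mark on transcribed genes, had 0.01 ± 0.23, and its other tested probe 0.07 ± 0.46. KMT2E had -0.12 ± 0.30 and SETD6, which methylates the NF-kappa-B subunit RELA, -0.20 ± 0.27. SETD4, SETD5 and SETD7 did not pass the filter.

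Writers of the silencing H3K9 mark were measured for 3 of 6 genes, all of them tested through the low BHB channel alone. Their median was -0.23, and that of all 6 genes without the filter -0.02. SETDB2 read -0.23, 0.24, -1.60 and -0.62 on arrays 1 to 4, a mean of -0.55 ± 0.78 (adjusted p = 0.377) that was -0.20 without array 3. On arrays 3 and 4 the high group did not exceed background, so those ratios are poorly measured. SUV39H1 and SUV39H2 make the trimethyl mark of pericentromeric heterochromatin. SUV39H1 read -0.88, -0.04, 0.15 and 0.89, with a mean of 0.03 ± 0.73 (adjusted p = 0.966), and for the high group its spot exceeded background on 1 array. SUV39H2 had -0.23 ± 0.44. EHMT1, EHMT2 and SETDB1 did not pass the filter.

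All 4 PRC2 core genes were measured, with a class median of -0.50 (-0.90 to -0.26 over the alternatives) that carries no test. SUZ12, EED and EZH2 had means below 0, and EZH1, tested through the low BHB channel alone, was near 0. SUZ12, the scaffold subunit that holds the complex together, read -0.60, -0.41, -0.72 and -0.74 on arrays 1 to 4. All arrays were below 0 and close to each other, with a mean of -0.62 ± 0.15 (0.651-fold, 95% interval of the log2 ratio -1.06 to -0.18, adjusted p = 0.258). Its 2 dimmer tested probes had -0.49 ± 0.50 and -0.77 ± 0.61, with the high group above background on 2 arrays and 1 array, so both were tested through the low channel alone. A probe too dim to be tested had -0.04. Raw SUZ12 intensities were 502, 753, 898 and 1307 units in the high BHB channel and 898, 1483, 810 and 1794 in the low one. On array 3 the raw high channel was thus the brighter one, and the ratio was -0.72 after normalization. Median centring gave -1.32, -0.56, -0.80 and -1.003, beside -0.61, -0.12, -0.11 and -0.21 for the median of all tested genes.

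EED, which reads the H3K27 mark and passes the signal to the enzyme, had -0.58 ± 0.74 (adjusted p = 0.355), with -1.06 on array 1 and -1.35 on array 4 but -0.06 and 0.15 on arrays 2 and 3. EZH2, the catalytic subunit, had -0.42 ± 0.48 (adjusted p = 0.397), carried by -1.08 on array 4, and was -0.20 without it. EZH1, its paralog, read -0.56, 0.72, 0.11 and -0.36, a mean of -0.02 ± 0.57 (adjusted p = 0.973). Of the 4 genes SUZ12 alone was below 0 on all 4 arrays.

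KMT5A and KMT5B write the H4K20 mark. KMT5A read 0.46, 0.18, -0.23 and -0.17, with a mean of 0.06 ± 0.32 (adjusted p = 0.915). KMT5B read -1.42, -0.17, -0.58 and 0.22, a mean of -0.49 ± 0.70 (adjusted p = 0.402) that was -0.18 without array 1, and its other tested probe had 0.21 ± 0.27. NSD3, a writer of the H3K36 mark, read 0.40, -0.37, -0.56 and -0.56, with a mean of -0.27 ± 0.46 (adjusted p = 0.589), and its paralog NSD1 did not pass the filter.

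Protein arginine methyltransferases were measured for 6 of 8 genes, 1 above and 5 below 0. PRMT6, which marks an arginine of histone H3 and so opposes H3K4 methylation, was the one above. It read 0.04, 0.25, 0.94 and 1.02 on arrays 1 to 4. The 2 arrays with the high group in Cy3 were the high ones, and the mean was 0.56 ± 0.49 (1.47-fold, adjusted p = 0.321). At the raw level it read 485, 323, 881 and 1209 units in the high BHB channel and 456, 451, 356 and 505 in the low one. The low group's 356 on array 3 was not above background, so the ratio of that array is poorly measured. Each dye held the high group on 2 arrays, so a dye effect of equal size on all arrays cancels in the mean. With this balance a dye term in the fit leaves the mean at 0.56 by construction, so that fit is no check. The dye term of PRMT6 itself was -0.42 on the log2 scale, with an adjusted p of 0.992 in limma. Over all probes 0 dye terms passed, with 610 at an unadjusted p under 0.05. On 4 arrays a large adjusted p does not show that a dye effect is absent.

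PRMT1, the enzyme behind most asymmetric arginine dimethylation, read -0.39, -0.09, -0.72 and -0.15, all below 0, with a mean of -0.34 ± 0.29 (adjusted p = 0.441). Its other tested probe, slightly dimmer, was above 0 on every array (0.54, 0.07, 0.07 and 0.13), so the 2 probes of PRMT1 gave opposite directions. The first was tested through the low BHB channel alone and the other through the high one alone. PRMT5, the main symmetric enzyme, had -0.25 ± 1.11 and spanned -1.75 on array 1, where the high group did not exceed background, to 0.93 on array 2. PRMT9 had -0.24 ± 0.49, PRMT7 -0.13 ± 0.38 and PRMT3, which methylates a ribosomal protein, -0.08 ± 0.20. PRMT2 and PRMT8 did not pass the filter.

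**Figure D3:**
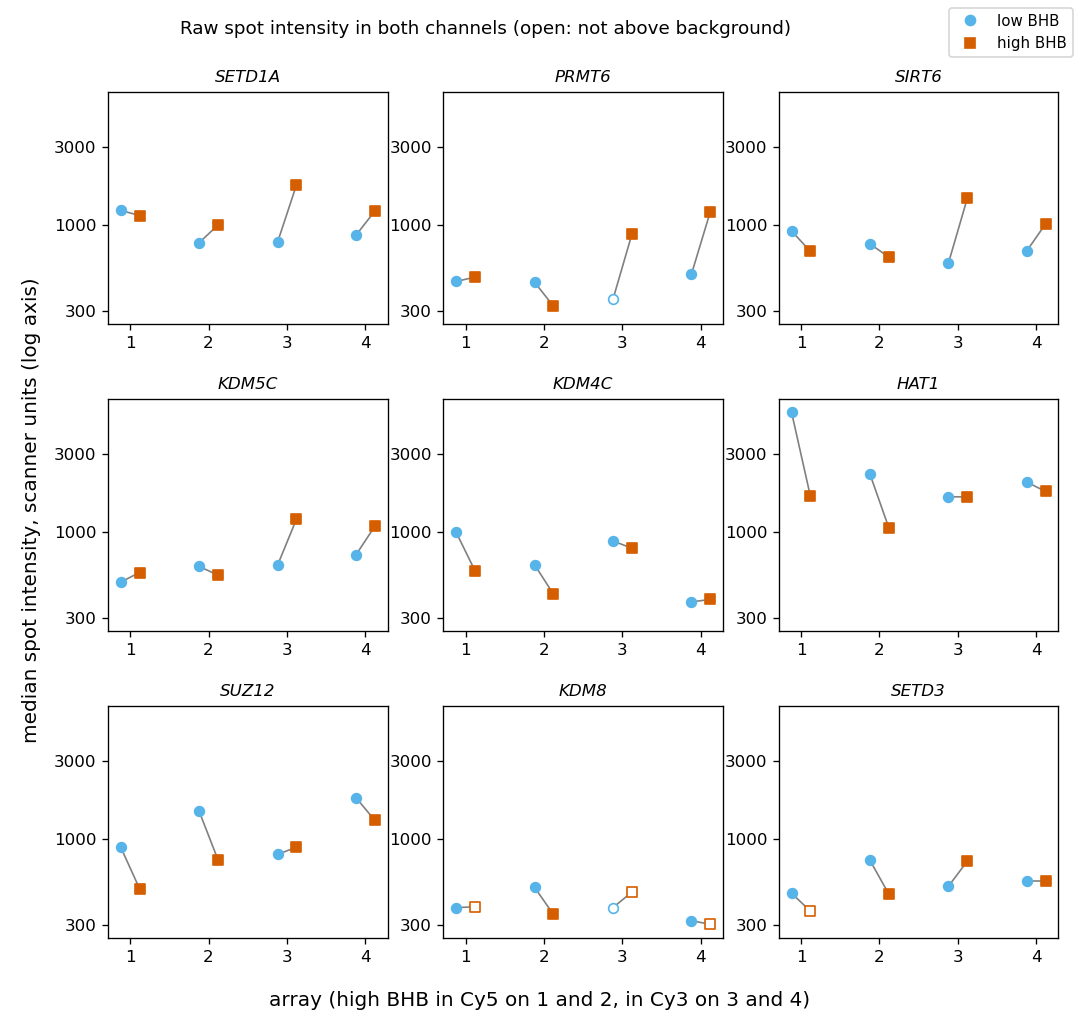
Median spot intensity in scanner units (y axis, log axis) in the low and high BHB channel of each array (x axis) for the 9 members with an unadjusted p under 0.05, with open symbols where a spot was not above background. Bars join the channels of 1 array before dye correction; for SUZ12 and HAT1 the low channel was clearly brighter on arrays 1 and 2, and about level with the high channel on array 3, and KDM8 was above background in the high channel on array 2 only.

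Lysine demethylases, the erasers of methyl marks, were measured for 11 of 13 genes, 4 above and 7 below 0, with a class median of -0.29 that was -0.06 without array 1. For the 9 above background in both channels it was -0.09. Erasers of the H3K4 mark lay on both sides of 0. KDM5C read 0.57, 0.62, 0.30 and 0.31, all above 0, with a mean of 0.45 ± 0.17 (1.37-fold, adjusted p = 0.328), or 0.23 after median centring. KDM5B, which has 3 tested probes, had 0.38 ± 0.48 at the brightest, with 1.04 on array 1, and 0.10 ± 0.41 and 0.44 ± 0.32 at the others. KDM5A, a paralog with the same substrate, had -0.43 ± 0.75, and KDM1A (LSD1), which removes mono- and dimethyl marks, -0.09 ± 0.36. KDM2A, an eraser of the H3K36 mark, had 0.23 ± 0.53.

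Erasers of the H3K9 mark included the lowest mean of any member. KDM3A read -1.94, -0.40, 0.45 and -0.98 on arrays 1 to 4, a mean of -0.72 ± 1.00 (0.607-fold, adjusted p = 0.347) that was -0.31 without array 1. KDM4C read -0.32, -0.16, -1.14 and -0.45. It was below 0 on all 4 arrays, with a mean of -0.52 ± 0.43 (0.699-fold, adjusted p = 0.330), or -0.31 without array 3. KDM4B had -0.30 ± 0.29, with -0.05 ± 0.58 at its other tested probe, and KDM4A 0.20 ± 0.58, or -0.06 without array 1.

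KDM8 (JMJD5), whose catalytic role as a demethylase is disputed, read -0.80, 0.02, -1.39 and -0.62, with a mean of -0.70 ± 0.58 (0.616-fold, adjusted p = 0.286). Its spot was dim, above background on 1 array for the high group and 3 for the low group, so it was tested through the low channel alone and its fold is poorly measured. Without background correction its mean was -0.32. KDM6A (UTX), which removes the H3K27 mark that PRC2 writes, had -0.29 ± 0.79 and lay on both sides of 0. KDM1B and KDM2B did not pass the filter.

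**Figure D4:**
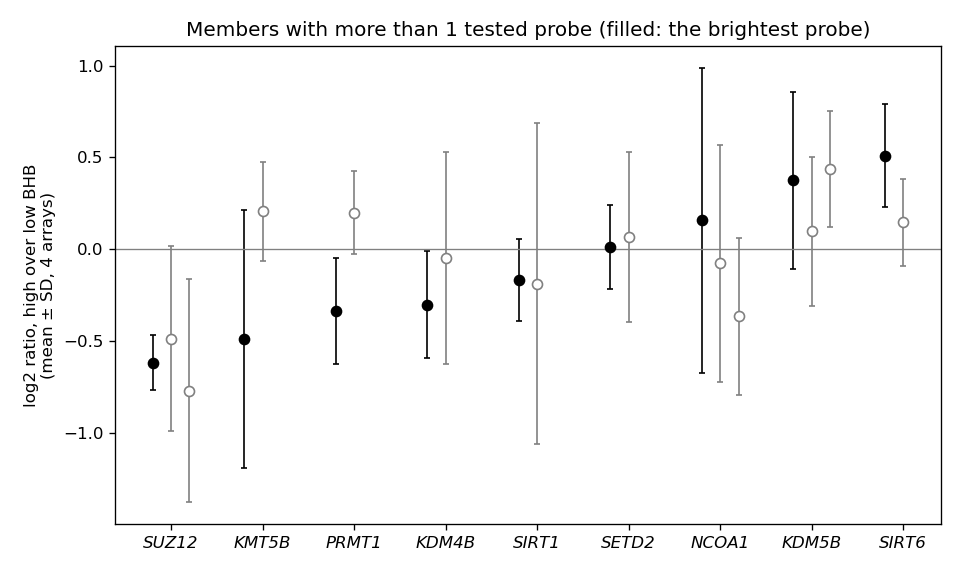
Mean log2 ratio of high over low BHB with its SD over 4 arrays (y axis) for each tested probe of the 9 members that have more than 1, brightest probe filled and to the left. For 6 of the 9 all probes have means of 1 sign, among them SUZ12 and KDM4B with dimmer probes tested through the low BHB channel alone, and for KMT5B, PRMT1 and NCOA1 the signs differ.

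Agreement between probes bore on how far a ratio could be read as that of the gene. Of the 51 members 9 had more than 1 tested probe, and in 6 of these all probes had means of 1 sign: SUZ12, KDM4B and SIRT1 below 0 and SETD2, KDM5B and SIRT6 above. For SUZ12 and KDM4B the dimmer probes were tested through the low BHB channel alone, so their sign is no support for the brightest probe. For the other 42 members a single probe stands for the gene.

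Partners of these enzymes came from lists of complex subunits, named by knowledge of the complexes. Counts in these and the following lists stand beside 54.4% of all tested genes below 0 and 45.6% above. A gene tested through 1 group's channel alone supports no direction. Here these were PHF1, through the high BHB channel, and MEN1, WDR82 and WDR5, all below 0, through the low one. Of 6 measured PRC2 partners 4 were below 0 (median -0.21), and none was at an unadjusted p under 0.05. JARID2, which helps PRC2 find its sites, had 0.35 ± 0.19, and the accessory subunits AEBP2 and MTF2 had -0.43 ± 0.75 and -0.37 ± 0.51. The histone-binding subunits RBBP4 and RBBP7 had -0.26 ± 0.53 and -0.15 ± 0.17. Among 11 measured COMPASS partners 8 were below 0 (median -0.07), and ASH2L, a core subunit that SETD1A needs for activity, had -0.65 ± 0.73 (adjusted p = 0.328), against 0.84 for SETD1A itself. ASH2L read -1.59, -0.85, -0.04 and -0.11 on arrays 1 to 4. Its spot exceeded background on 3 arrays for the high group and 4 for the low group. SETD1A was highest on arrays 1 and 2, but at -0.02 on array 1 after median centring. A relation between the 2 genes was not tested.

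Acetyltransferase complexes had 22 measured partners, 11 above and 11 below 0 (median -0.05). Of these, SUPT7L and BRPF1 were tested through the low BHB channel alone, and ING3 and SUPT3H through the high one alone. TADA1, a subunit of the SAGA complex, read -0.90, -0.62, -1.93 and -0.19, with a mean of -0.91 ± 0.74 (0.532-fold, adjusted p = 0.258). Corepressor partners had 8 of 12 members above 0 (median 0.05), among them MTA2 of the NuRD deacetylase complex at 0.54 ± 0.38 (adjusted p = 0.314). Among readers of histone marks 7 of 18 were above 0 (median -0.04). In these 2 lists MTA3 and PHF2, both below 0, were tested through the low BHB channel alone. TBL1XR1, BRD2 and CBX7, all above 0, were tested through the high one alone. TRIM28, the corepressor that recruits SETDB1, had 0.69 ± 0.34 (adjusted p = 0.258) with all 4 arrays above 0. CBX8, a reader of the H3K27 mark in Polycomb repressive complex 1, had 0.76 ± 0.65 (adjusted p = 0.285), and TRIM33 -0.48 ± 0.34 (adjusted p = 0.333).

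Enzymes that supply the cofactors were measured for 13 genes, 5 above and 8 below 0 (median -0.12). ACLY, which makes the cytosolic acetyl-CoA used for histone acetylation, had 0.54 ± 0.29 (adjusted p = 0.302) and was above 0 on every array. The pyruvate dehydrogenase subunits PDHB and DLAT, which make acetyl-CoA in mitochondria, had -0.72 ± 0.58 and -0.58 ± 0.58 (adjusted p = 0.285 and 0.327). NAMPT and NMNAT1, which make the NAD that sirtuins consume, had -0.64 ± 0.38 and -0.73 ± 0.73 (adjusted p = 0.282 and 0.302). NAMPT exceeded background on 2 arrays for the high group and 4 for the low group, so it was tested through the low channel alone, and NMNAT1 was at 0.20 on array 1. In this list 1 of 13 was higher and 4 lower at an unadjusted p under 0.05, beside 5.72% and 11.6% of genes.

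Markers of the embryo's cell types varied between the arrays beside these ratios. Hypoblast markers had 5 of 5 measured members above 0 (median 0.55, with array medians of 0.39, 1.04, 1.17 and -0.03), trophectoderm markers 6 of 10 (median 0.09) and inner cell mass markers 2 of 5 (median -0.27). The array medians of the inner cell mass markers were -0.42, 0.13, 0.08 and -0.19, and on array 4 the single markers were NANOG at -3.38, SOX2 at -0.75, POU5F1 at -0.19, KLF4 at -0.14 and PRDM14 at 0.29. Of 9 oocyte markers on the array 3 were measured, from -0.04 to 0.15, and of 7 cumulus cell markers 1 was measured (STAR, -0.27 ± 0.26). The trophectoderm marker ELF5, above 0, was tested through the high BHB channel alone. The oocyte marker ZP3, below 0, was tested through the low one alone. Of 5 blood and endometrium markers 2 were measured, with PTPRC at 0.42 ± 0.39 and HBA at 0.25 ± 0.40. The part of cell type shares in the ratios of the histone enzymes was not tested.

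**Figure D5:**
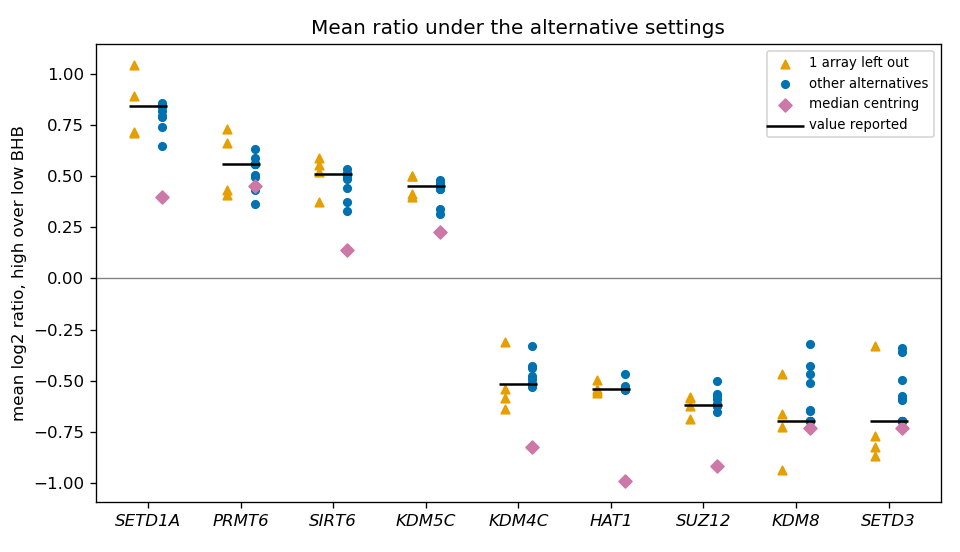
Mean log2 ratio of high over low BHB (y axis) of the 9 members with an unadjusted p under 0.05: a black bar for the value reported, triangles with 1 array left out, a diamond after median centring and dots under the other alternatives. No mean crossed 0, though several of the other alternatives leave a mean unchanged by construction. Median centring lowered SETD1A to 0.40 and SIRT6 to 0.14 and moved HAT1 to -0.99.

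None of the 9 members at an unadjusted p under 0.05 changed sign under the alternatives run, which their choice by a small p favours. Of the other 42 members 21 took both signs. SUZ12 ranged from -0.92 to -0.50 and HAT1 from -0.99 to -0.47. Of the lower members these 2 moved least when 1 array was left out, -0.69 to -0.58 for SUZ12 and -0.56 to -0.50 for HAT1. Among the higher members KDM5C ranged from 0.40 to 0.50 with 1 array left out, SETD1A from 0.71 to 1.04, SIRT6 from 0.38 to 0.59 and PRMT6 from 0.41 to 0.73.

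The 14 genes that did not pass the filter have no ratio here. Of these, 6 were not above background on any array in either channel: SETD1B, SETD4, SETD7, KDM1B, PRMT2 and PRMT8. The other 8 were above it on 1 or 2 arrays in a channel, and they include EHMT2, which writes the H3K9 dimethyl mark, and SETDB1. Absence of signal at these probes limits what the array can show and does not say that a gene is silent.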

How the data were processed

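Total RNA of embryos was amplified, labelled chemically and hybridised to 2-colour Agilent slides, per the labels' protocols. The deposited scanner files give the median intensity of each spot and its local background, per the file headers, with no normalization, and mark 95 to 114 spots per array as set aside. A table of the authors' log2 ratios was deposited too, which ran in the direction of high over low BHB (r with the ratios here 0.91 to 0.96) and had array medians of 0.00096 to 0.017. Of tools, the submitters' processing notes name limma.

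Here background was corrected with normexp (offset 50), fitted without the spots set aside, followed by loess within arrays (span 0.3), giving control spots weight 0. A probe was above background where its foreground exceeded the median plus 2 MAD of 153 negative control spots, and was tested where that held for 1 group on at least 3 of 4 arrays. The mean plus 2 SD was run as an alternative. Ratios were tested against 0 with limma 3.58.1 in R 4.3.3, with Benjamini-Hochberg adjustment over all 16575 probes. The pairing lies within each array, since same-numbered RNAs were hybridised together, per the labels. The procedure was tested on simulated data.

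Symbols came from the platform's annotation (21790 probes with 1 symbol, none with several, 22004 without) and were updated through RefSeq's gene table of ARS-UCD2.0, used for names alone (20025 current, 1524 synonyms, 241 neither). No genome or probe sequence was used. Values on every array are given for members with an unadjusted p under 0.05 and for the highest and lowest of each class. The members, classes and partner lists were chosen with earlier results of these data known.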

Additional observations from a re-analysis of the deposited data

How the results depend on the processing

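With 4 arrays, the median half-width of a member's 95% interval was 0.53 on the log2 scale. The offset and residual background can hold the ratios of dim probes towards 0, which was not tested. No member passed over all probes under any of the 19 alternatives run except 1. When arrays whose titles repeat a number were averaged, 4 members passed (SETD1A, KDM8, KDM3A and SETD3), as 1531 of all 16575 tested probes passed. At an unadjusted limma p under 0.05, 10 members were then lower (19.6%, beside 16.2% of genes), and 7.84% were higher, beside 11.4%. Averaging them takes the arrays as dye swaps of the same RNAs. Pearson's r over tested probes was 0.10 for arrays 1 and 3 and 0.18 for arrays 2 and 4, beside 0.18 to 0.38 for the other pairs. Over all tested probes 2 passed, against 3 with array weights and 3 under the stricter filter, 1 without background correction, 1 without the filter, 1 with a dye term and 1 with the negative control background, and 0 with normexp fitted on all spots and after median centring. Without the pairing within arrays (no replicate block) 0 probes passed. At an unadjusted p under 0.05 in that fit, 1 member was higher (1.96%) and 0 lower, beside 2.04% and 4.92% of genes. The cause was not tested.

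Members lower at an unadjusted p under 0.05 numbered 3 (5.88%, beside 11.3% of genes) with normexp fitted on all spots. They numbered 3 (5.88%, beside 10.9%) without background correction and 2 (3.92%, beside 11.3%) with the deposited log2 ratios. After median centring 10 were lower (19.6%, beside 22.7%) and 0 higher (beside 0.482%), and the members' median moved to -0.33. The stricter filter, by its construction, left 29 members, 18 of them below 0 (62.1%, beside 50.9% of genes). Under it 2 were higher and 2 lower (6.90% each, beside 8.12% and 11.8% of genes). With 1 array left out, 0 to 2 probes passed (0 without array 2 or array 4). In these fits 1 to 4 members were higher (1.96% to 7.84%, beside 2.60% to 6.63% of genes). Lower were 3 to 6 (5.88% to 11.8%, beside 7.16% to 10.5%). The median was -0.22 to -0.01, and 28 to 37 members were below 0 (54.9% to 72.5%, beside 51.1% to 56.5% of genes). Without array 2 or 3 just 1 member was higher, beside 5.08% and 6.63% of genes. For 42 of 51 members the mean shifted more than 1.5 times, or past 0, when an array was left out (34 for array 1, 24 for array 2, 29 for array 3 and 20 for array 4). The alternative with negative controls as background, and the limit to 39 members above background in both channels, were chosen after seeing the data. Of these 39 members 24 were below 0 (61.5%, beside 53.3% of genes).

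No sign changed for 30 members, though several alternatives cannot move a mean, as said above. The others had the other sign as follows. Median centring gave -0.17 for HDAC8, -0.16 for KAT5, -0.21 for KDM2A, -0.091 for KDM5B, -0.032 for KMT5A, -0.29 for NCOA1, -0.28 for SETD2 and -0.026 for SUV39H1. Normexp on all spots gave 0.050 for EZH1, -0.024 for SETD2, 0.046 for SIRT4 and -0.025 for SUV39H1. Loess on the tested probes gave 0.17 for EZH1 and 0.091 for SIRT4, and array weights 0.10 for EZH1, -0.00076 for KMT5A, 0.042 for PRMT5, 0.026 for SIRT2, 0.13 for SIRT4 and 0.11 for SIRT7. SUV39H1 was at -0.089 with the deposited ratios and -0.064 with the negative control background, SIRT7 at 0.033 without background correction and NCOA1 at -0.10 over its probes. With 1 array left out the range was -0.27 to 0.16 for EZH1, -0.011 to 0.28 for HDAC11, -0.12 to 0.19 for HDAC5, -0.11 to 0.027 for KAT8, -0.22 to 0.048 for KDM1A, -0.063 to 0.39 for KDM4A, -0.52 to 0.033 for KDM6A, -0.073 to 0.16 for KMT5A and -0.11 to 0.51 for NCOA1. It was -0.65 to 0.25 for PRMT5, -0.071 to 0.098 for SETD2, -0.30 to 0.21 for SIRT2, -0.099 to 0.65 for SIRT3, -0.21 to 0.24 for SIRT4, -0.47 to 0.069 for SIRT5, -0.28 to 0.28 for SIRT7 and -0.26 to 0.34 for SUV39H1. The cause was not tested.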

Other observations

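Several members lie on the X chromosome of mammals, among them KDM5C, KDM6A, SUV39H1, HDAC6 and HDAC8, and the cows were inseminated with sexed semen. KDM5C had 0.45 ± 0.17, HDAC8 0.28 ± 0.61, SUV39H1 0.03 ± 0.73, HDAC6 -0.26 ± 0.51 and KDM6A -0.29 ± 0.79. SUV39H1 and KDM6A were tested through the low BHB channel alone, so their ratios support no direction. On array 3 HDAC6 and KDM6A were above background in neither channel, and on array 1 the high group of KDM6A did not exceed background. Those ratios are poorly measured. KDM5C and KDM6A both escape X inactivation in humans, and here the first was above 0 on all 4 arrays and the second at -1.24, 0.43, -0.63 and 0.29. Embryo sex was not analysed here.

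Array 1 held the lowest of the 4 ratios for 23 of 51 members, against 34.9% of all genes, and the highest for 10, against 27.6%. Its weight from limma's array weights was 0.50, against 1.19 to 1.38 for the other arrays.

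Paralogous demethylases differed in the sign of their means on these arrays. KDM5C and KDM5B stood at 0.45 and 0.38 beside KDM5A at -0.43, and KDM4A at 0.20 beside KDM4B and KDM4C at -0.30 and -0.52. These differences between genes were not tested.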
